A study of Mus musculus with 20 samples.

Results

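Of the 55573 genes in the count table, 13 were nearly absent from both wild type (WT) iPSC lines and present in both Nox4-/- lines. They were chosen by a rule on counts: a mean of at most 5 over the 5 libraries of WT#1-4 and over the 5 of WT#20D-17, and a mean of at least 20 over the 5 libraries of Nox4-/- #5-8 and over the 5 of Nox4-/- #5-23. The same rule with the genotypes exchanged found 96 genes. Because the rule used the contrast of genotypes, the counts of WT and Nox4-/- libraries are a description here and were not tested against each other.

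The 20 libraries are mRNA-seq profiles of mouse induced pluripotent stem cells (iPSCs) differentiating as embryoid bodies (EBs), which are aggregates that form derivatives of the germ layers once LIF is withdrawn. Each of the 4 lines gave 1 library on days 0, 3, 5, 7 and 14. The last day is the one in the sample titles, although the culture notes of the labels name another. The paper describes WT#1-4, #5-8 and #5-23 as embryonic fibroblasts reprogrammed with retroviral Oct4, Sox2, Klf4 and c-Myc. Its methods give selection with puromycin, culture on feeder cells and lines grown from single picked colonies. WT#20D-17 is not named in the paper, which thus gives no derivation for it. The genotype was wild type for WT#1-4 and WT#20D-17 and a knockout of Nox4, from Nox4-/- mice, for #5-8 and #5-23. The methods name CF-1 embryos as a source of embryonic fibroblasts, without saying which lines, if any, came from them. The strain of the Nox4-/- mice is not given in the sources used here. The loss of Nox4, the embryos of origin and the picked colonies thus cannot be told apart for genes chosen on this contrast.

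Nox4 is an NADPH oxidase that releases hydrogen peroxide, a reactive oxygen species used as a signal in differentiating cells. Its own count was at most 2 in every Nox4-/- library, between 3 and 22 in WT#1-4, and at most 203 in WT#20D-17. Library totals lay between 20294968 and 27708023 counts, and the floor of 3 counts stood at 0.108 to 0.148 CPM (a count relative to the total of its library, here without TMM factors). WT#20D-17 stood apart from the other lines. The summed level of 6 endoderm markers (Afp, Sox17, Foxa2, Gata4, Gata6 and Ttr) was between 128 and 1701 CPM in its libraries and at most 4.54 CPM in those of the other lines, with Sox17 and Ttr at 0 in all 10 Nox4-/- libraries. The pluripotency genes Nanog, Zfp42, Esrrb and Dppa5a were also present there and had means under 1 CPM in each of the other lines. Tdgf1 and Utf1 were likewise highest there. Other markers of that list went differently. Pou5f1 had its lowest mean there, 344 CPM against 3328 in WT#1-4, 2757 in #5-8 and 3791 in #5-23. Sox2, at 60.4 CPM, was above WT#1-4 (14.3) and below #5-8 (105) and #5-23 (173). Without WT#20D-17 the rule took 41 genes, among them the same 13.

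Among the 13 genes, 6 are annotated as protein coding, 3 as lincRNA, 3 as TEC (a GENCODE class of transcribed loci that await experimental testing) and 1 as a bidirectional promoter lncRNA. The protein coding genes have unlike roles. Sectm1a belongs to a family of secreted and transmembrane proteins that act as ligands on immune cells, Ces2e is a carboxylesterase of the family that splits esters in liver and intestine, and Serpina1d is a copy of alpha-1 antitrypsin, the serine protease inhibitor made by liver. Olig2 is the basic helix-loop-helix factor of motor neuron and oligodendrocyte progenitors, Sst encodes the peptide hormone somatostatin, and Gm21188 is a predicted gene. The protein coding share was 46.2% (6 of 13), against 90.0% of the 13286 genes that reached a mean of 20 counts in each Nox4-/- line and 97.9% (94 of 96) of the genes with the mirrored pattern. The 13 genes had low counts and these groups were not matched for level, so nothing is read from the shares. The 13 genes lie on 9 chromosomes. Those on the chromosome of Nox4 are Gm26708, 3050981 bases from it, and Gm44760, 40258352 bases from it.

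Promoter sequences were taken from RefSeq on GRCm38.p6 (250 bases before to 50 after the start of each gene), where 7 of the 13 genes had an entry. For Gm26708 the entry starts 80862 bases from the GENCODE start and was not used. The promoters of Gm21188 (chr13:120052155-120052454, minus strand) and Gm36161 (chr13:120010092-120010391, plus strand) are shown because these neighbours, read from opposite strands, carry nearly the same sequence. Capitals mark the longest run of bases shared by both, 186 in length.
Gm21188 promoter: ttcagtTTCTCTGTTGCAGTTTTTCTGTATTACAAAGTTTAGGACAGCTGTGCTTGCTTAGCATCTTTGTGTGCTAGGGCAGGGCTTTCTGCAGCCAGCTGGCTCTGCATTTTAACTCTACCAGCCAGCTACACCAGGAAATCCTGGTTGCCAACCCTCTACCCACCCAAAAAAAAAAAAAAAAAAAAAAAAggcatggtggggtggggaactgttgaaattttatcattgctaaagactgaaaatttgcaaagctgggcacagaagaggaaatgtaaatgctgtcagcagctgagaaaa
Gm36161 promoter: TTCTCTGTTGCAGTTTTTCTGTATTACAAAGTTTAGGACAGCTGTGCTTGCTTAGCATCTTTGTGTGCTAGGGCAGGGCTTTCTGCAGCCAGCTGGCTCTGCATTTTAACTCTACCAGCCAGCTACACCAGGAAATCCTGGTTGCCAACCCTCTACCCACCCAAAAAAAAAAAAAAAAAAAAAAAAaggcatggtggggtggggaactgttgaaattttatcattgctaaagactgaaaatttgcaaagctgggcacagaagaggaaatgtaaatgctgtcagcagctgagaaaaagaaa

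In all, 294 of 300 bases (98.0%) of the Gm21188 promoter lay in runs that matched Gm36161, and neither promoter held a CpG dinucleotide. The promoters of Sst (chr16:23890795-23891094, minus strand) and Olig2 (chr16:91225300-91225599, plus strand) are shown as the CpG-rich end of the set. Capitals mark the cAMP response element TGACGTCA in Sst and the TATA motif TATAAA in Olig2.
Sst promoter: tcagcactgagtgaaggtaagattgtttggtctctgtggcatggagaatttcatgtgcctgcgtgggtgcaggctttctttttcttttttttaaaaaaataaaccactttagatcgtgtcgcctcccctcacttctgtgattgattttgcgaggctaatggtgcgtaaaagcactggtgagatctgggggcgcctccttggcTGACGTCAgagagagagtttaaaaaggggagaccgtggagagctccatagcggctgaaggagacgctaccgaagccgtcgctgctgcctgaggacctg
Olig2 promoter: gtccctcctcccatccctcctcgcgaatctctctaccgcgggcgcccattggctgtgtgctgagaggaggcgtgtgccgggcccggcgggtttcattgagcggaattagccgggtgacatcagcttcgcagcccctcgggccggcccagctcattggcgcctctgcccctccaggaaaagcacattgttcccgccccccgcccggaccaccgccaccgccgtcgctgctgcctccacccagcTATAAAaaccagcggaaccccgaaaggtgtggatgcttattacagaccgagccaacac

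The Sst promoter held 13 CpG sites and the Olig2 promoter 25. Their ratios of observed to expected CpG were 0.71 and 0.82, against a median of 0.384 over all 32851 promoters of the table, while Ces2e stood at 0.134 and Serpina1d at 0.228. Searched on both strands, TGACGTCA was found in 1.79% of all promoters and among these genes in Sst. The motif TATAAA was found in 13.6% of all promoters, and it does not overlap the former. The promoters thus ranged from no CpG to CpG-rich, and a match of letters is a description of the window and not a binding site.

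The rule asks for means only, and single libraries kept apart as well. Of the 130 values in WT libraries, 58 (44.6%) were 0, 24 were over 3 counts and the highest was 10. In the Nox4-/- libraries the 130 values ran from 7 to 1010. For all 13 genes each Nox4-/- library was above each WT library, in counts and in CPM, where 1.01% of 20305 measured genes had no overlap in this direction (a mean of 5 counts reached in 1 line). As the rule used this contrast, nothing is read from that count. No gene was at 0 in all 10 WT libraries, so "nearly absent" describes them better than "only in the knockout". In bulk RNA, fewer cells that express a gene and less RNA per cell cannot be told apart.

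**Figure D1:**
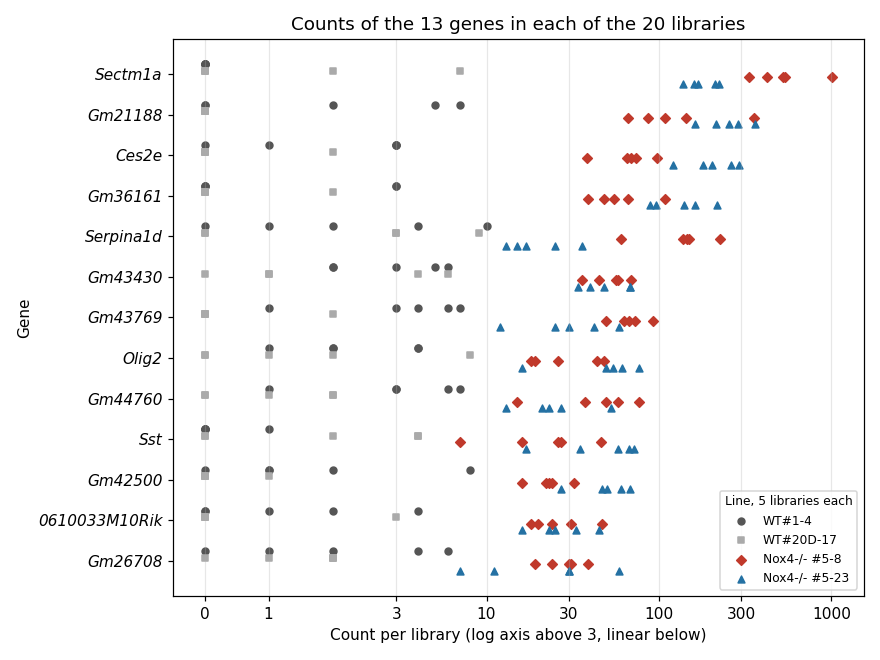
Count of each of the 13 genes (rows) in each library, on an axis that is linear up to 3 counts and logarithmic above, with 1 symbol per library and 4 symbols for the 4 lines. WT libraries lie between 0 and 10 counts and Nox4-/- libraries between 7 and 1010, with no overlap within a gene.

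Sectm1a (ENSMUSG00000025165, chromosome 11 from 121067407 to 121081220, minus strand) was the most abundant of them. It had 0 counts in all 5 libraries of WT#1-4, and 0, 0, 0, 2 and 7 counts on days 0, 3, 5, 7 and 14 in WT#20D-17. In Nox4-/- #5-8 it had 421, 332, 537, 526 and 1010 counts, which is 16.9, 14.05, 20.2, 25.1 and 46.5 CPM after TMM scaling. In Nox4-/- #5-23 it had 159, 138, 222, 169 and 211 counts, or 5.97, 6.38, 8.45, 7.66 and 7.91 CPM. Line #5-8 was thus above #5-23 on every day, and the lowest library of #5-8 was above the highest of #5-23. None of the 75-base stretches of its transcripts occurs in another annotated gene, so no sharing of reads with a copy was seen at that length. Only exact matches were searched, and near matches were not.

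Gm21188 (ENSMUSG00000095609, chromosome 13 from 120034605 to 120052194, minus strand) had 5, 2, 7, 0 and 0 counts in WT#1-4 and 0 in all libraries of WT#20D-17. It had 358, 143, 109, 66 and 86 counts in #5-8, and 215, 162, 289, 256 and 359 counts in #5-23. The highest library of #5-8 was day 0, whereas in #5-23 day 14 was highest and day 3 lowest. Gm36161 (ENSMUSG00000114608, chromosome 13 from 120010390 to 120018931, plus strand), the lincRNA whose promoter is shown above, had 3, 0, 3, 0 and 0 counts in WT#1-4 and 2 counts on day 14 alone in WT#20D-17. Its counts were 109, 48, 55, 39 and 66 in #5-8 and 89, 96, 161, 140 and 216 in #5-23. Its days followed the same order of lines as those of Gm21188, with #5-8 higher on day 0 and #5-23 higher on the 4 later days. These genes are not independent measurements, because 51.7% of the 75-base stretches of Gm36161 transcripts also occur in Gm21188 and reads from such stretches were divided between them.

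Ces2e (ENSMUSG00000031886, chromosome 8 from 104926260 to 104934672, plus strand) had 1, 3, 0, 3 and 3 counts in WT#1-4 and 2 counts on day 14 alone in WT#20D-17. It had 74, 38, 65, 69 and 97 counts in #5-8, and 121, 180, 262, 290 and 204 in #5-23. Here #5-23 was the higher line on every day, the opposite of Sectm1a. Only 0.334% of its 75-base stretches occur elsewhere, all of them in its neighbour Ces2g.

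Serpina1d (ENSMUSG00000071177, chromosome 12 from 103763594 to 103773592, minus strand) showed the widest spread among the Nox4-/- libraries, 21.3-fold in CPM between the highest and the lowest. It had 1, 10, 4, 2 and 0 counts in WT#1-4 and 0, 0, 3, 3 and 9 in WT#20D-17. Its counts were 60, 149, 146, 138 and 226 in #5-8 and 13, 17, 36, 25 and 15 in #5-23. The gap between genotypes was narrow in #5-23, where day 0 stood at 0.488 CPM (95% Wilson interval from 0.285 to 0.835), next to 0.462 CPM (0.243 to 0.878) in WT#20D-17 on day 14. Of its 75-base stretches, 37.1% occur in other genes, mostly in Serpina1c (30.6%), so its level is uncertain by the division of reads among the alpha-1 antitrypsin copies.

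Olig2 (ENSMUSG00000039830, chromosome 16 from 91225457 to 91228677, plus strand) had 1, 4, 4, 2 and 2 counts in WT#1-4 and 1, 0, 0, 8 and 2 in WT#20D-17. It had 26, 44, 48, 19 and 18 counts in #5-8, and 54, 77, 61, 49 and 16 in #5-23. Day 3 or day 5 was its highest in both lines, and day 14 its lowest. Sst (ENSMUSG00000004366, chromosome 16 from 23889573 to 23890958, minus strand) had 1 count on day 0 alone in WT#1-4 and 0, 2, 4, 0 and 4 in WT#20D-17. It had 46, 16, 26, 7 and 27 counts in #5-8, and 58, 72, 67, 35 and 17 in #5-23. The levels of both genes were low: Sst reached at most 3.33 CPM (95% Wilson interval from 2.64 to 4.19) and Olig2 at most 3.56 CPM in any library.

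The other genes are non-coding or of open status. Gm43430 (chromosome 3 from 135650670 to 135654566, minus strand), which lies inside Nfkb1 on the same strand without sharing exon bases, had 36, 56, 69, 58 and 45 counts in #5-8 and 48, 34, 68, 40 and 68 in #5-23. It was the most even of the 13, with a 1.91-fold spread in CPM over the 10 Nox4-/- libraries. Gm43769 (chromosome 5 from 65911624 to 65915946, plus strand) had 63, 73, 92, 67 and 49 counts in #5-8 and 12, 42, 59, 25 and 30 in #5-23, and #5-8 was higher on every day. Gm44760 (chromosome 7 from 127657062 to 127658234, minus strand) had 37, 49, 77, 58 and 15 counts in #5-8 and 13, 21, 27, 23 and 53 in #5-23. It was higher in #5-8 up to day 7 and in #5-23 on day 14.

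Gm42500 (chromosome 5 from 128448904 to 128449782, plus strand) had 22, 23, 32, 24 and 16 counts in #5-8 and 60, 68, 50, 47 and 27 in #5-23, the higher line on every day. The lincRNA 0610033M10Rik (chromosome 6 from 51400966 to 51402219, minus strand) ran from 18 to 47 counts in #5-8 and from 16 to 45 in #5-23, and the lines overlapped. Gm26708 (chromosome 7 from 84152140 to 84195115, plus strand) had 24, 19, 31, 30 and 39 counts in #5-8 and 7, 11, 30, 30 and 59 in #5-23. Its lowest Nox4-/- library, 0.263 CPM (95% Wilson interval from 0.127 to 0.542), was barely above its highest WT library, 0.24 CPM (0.11 to 0.525).

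Compared per kilobase of exon, which allows levels of different genes to be set side by side, the order differed between the Nox4-/- lines. In #5-8 Sectm1a had a mean of 14.5 CPM per kb and Serpina1d of 4.48, followed by Gm42500 (1.91), Gm36161 (1.77), Gm44760 (1.69), Sst (1.41) and Gm21188 (1.38). The means of the other 6 genes in #5-8 lay between 1.10 (0610033M10Rik) and 0.51 CPM per kb (Olig2). In #5-23 the means of Sectm1a (4.30 CPM per kb) and Gm42500 (4.04) were close, and Gm36161 (3.76), Ces2e (3.23), Sst (2.85) and Gm21188 (2.26) came next. The other 7 genes lay between 1.06 (0610033M10Rik) and 0.319 CPM per kb (Gm43769) there, with Serpina1d at 0.623. The median of the mean count in the high lines was 51.2 for the 13 genes and 109 for the 96 genes of the mirrored pattern.

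Some genes stood close to the limits of the rule. The highest WT line means inside it were 4.2 counts for Gm43769, 4.0 for Gm44760 and 3.6 for Gm43430, and the lowest Nox4-/- line means were 21.2 for Serpina1d, 23.4 for Gm42500 and 24.4 for Sst. Just outside on the WT side were Hoxc11 (means of 0 and 5.2 counts in WT#1-4 and WT#20D-17, and 54.0 and 78.4 in #5-8 and #5-23), AC168977.1, with a higher WT mean of 5.25, and Myrip (1.4, 5.6, 217.6 and 275.6). Just outside on the Nox4-/- side were Gm17184, Tff2 and Gm12320, with a lower line mean of 18.6, 18.0 and 18.0 counts. When every WT library had to be at most 5 counts and every Nox4-/- library at least 20, Ces2e and Gm36161 were left.

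The rule asked both Nox4-/- lines for counts but not for equal counts, so the difference between the lines could be tested. It was tested across 15043 genes with edgeR's quasi-likelihood test and day as a covariate, and the FDR is Benjamini-Hochberg adjusted. The days of a line are not independent cultures of it, so the test compares these lines over the sampled days. Of the 13 genes, 3 passed an FDR of 0.01, where 8.74% of all genes tested passed (5.24% higher and 3.5% lower in #5-23). Sectm1a was lower in #5-23 than in #5-8 by 1.65 on the log2 scale (log2 difference of -1.65, SE 0.203, FDR of 0.00132 from edgeR), and lower on 5 of 5 days. Serpina1d was lower in #5-23 on 5 of 5 days (log2 difference of -2.80, SE 0.331, FDR of 0.00114 from edgeR). Ces2e was higher in #5-23 on 5 of 5 days (log2 difference of 1.53, SE 0.291, FDR of 0.00853 from edgeR). This last call was lost without day 0, 3, 5 or 7 in turn, with an FDR of up to 0.0412 from edgeR, and with upper quartile normalization (0.0121) or no day covariate (0.0226).

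The direction of the line difference divided the set. It was positive, with #5-23 higher, for 6 genes and negative for 7. The median of its absolute size was 0.99 log2 units for the 13 genes and 0.26 over all genes tested. The 13 genes had low counts, where counting error widens absolute differences. They were not compared with genes of like level, so nothing is read from these medians. Gm36161 (1.08, FDR of 0.0514 from edgeR), Gm42500 (1.00, FDR of 0.0353), Sst (0.99, FDR of 0.197), Gm21188 (0.89, FDR of 0.165) and Olig2 (0.63, FDR of 0.179) had positive values that did not pass. Gm43769 (-1.22, FDR of 0.0279 from edgeR), Gm44760 (-0.88, FDR of 0.236), Gm26708 (-0.39, FDR of 0.481), Gm43430 (-0.13, FDR of 0.745) and 0610033M10Rik (-0.05, FDR of 0.934) had negative values that did not pass. For 0610033M10Rik the approximate 95% interval of the difference ran from -0.77 to 0.66, so a difference inside that range could not be told from 0.

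**Figure D2:**
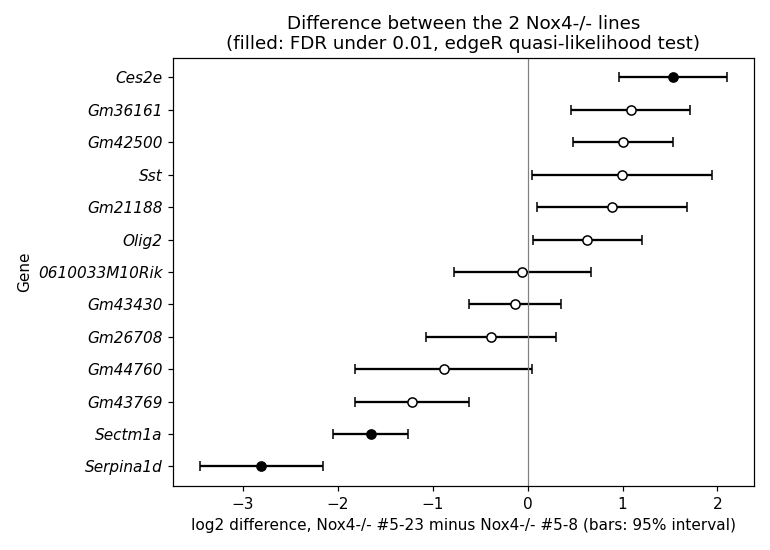
Fitted log2 difference of Nox4-/- #5-23 minus Nox4-/- #5-8 for the 13 genes, with bars of an approximate 95% interval. Filled points mark an FDR under 0.01 from edgeR. The bars use a normal approximation and are narrower than edgeR's test implies. For Gm21188 the bar ran from 0.10 to 1.68, while the unadjusted p from edgeR was 0.057. Serpina1d (-2.80) and Sectm1a (-1.65) are at the bottom and Ces2e (1.53) at the top.

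The rule used means over the days, so the course over days was open to test. No gene of the 13 passed an FDR of 0.01 in edgeR's quasi-likelihood test of day over the 10 Nox4-/- libraries, where 1.71% of 16565 genes passed (283 genes, 1.25% higher and 0.459% lower on day 14). At an unadjusted p under 0.05 there were 4265 genes. None of the 13 was under an unadjusted p of 0.05, their lowest FDR was 0.31, and DESeq2's likelihood ratio test also called 0 of them. With the line as a replicate block, 2280 genes (13.8%) passed and again 0 of the 13, of which 2 were under an unadjusted p of 0.05. With that block Sectm1a stood 1.10 log2 units higher on day 14 than on day 0 (SE 0.32, FDR of 0.0894 from edgeR) and Gm26708 1.88 higher (SE 0.57, FDR of 0.113). Sectm1a (FDR of 0.00476) and Gm26708 (FDR of 0.00832) passed in edgeR's test of a linear trend in day with the same block, in which 30.1% of all genes passed.

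The fitted day 14 minus day 0 difference, without the block, was positive for 9 genes and negative for 4, with a median of 0.59 log2 units against 0.14 over all genes. Its errors were wide, and without the block they take in the difference between the lines. For Sectm1a it was 1.33 (approximate 95% interval from -0.59 to 3.25) and for Serpina1d 1.99 (-1.11 to 5.09). For Olig2 it was -0.9997 (-2.17 to 0.17) and for Sst -1.004 (-2.80 to 0.79). With the block the values were 1.10 (0.47 to 1.72) for Sectm1a and 1.52 (0.52 to 2.53) for Serpina1d. They were -0.92 (-1.89 to 0.04) for Olig2 and -0.91 (-2.38 to 0.56) for Sst. The FDR of day for Serpina1d with the block was 0.219 from edgeR, and these intervals are narrower than that test implies. Taken line by line, 6 genes were higher on day 14 than on day 0 in both lines, 3 (Olig2, Sst and Gm42500) were lower in both, and 4 (Gm21188, Gm36161, Gm43769 and Gm44760) went opposite ways. These values have 1 library per line and day and no test.

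**Figure D3:**
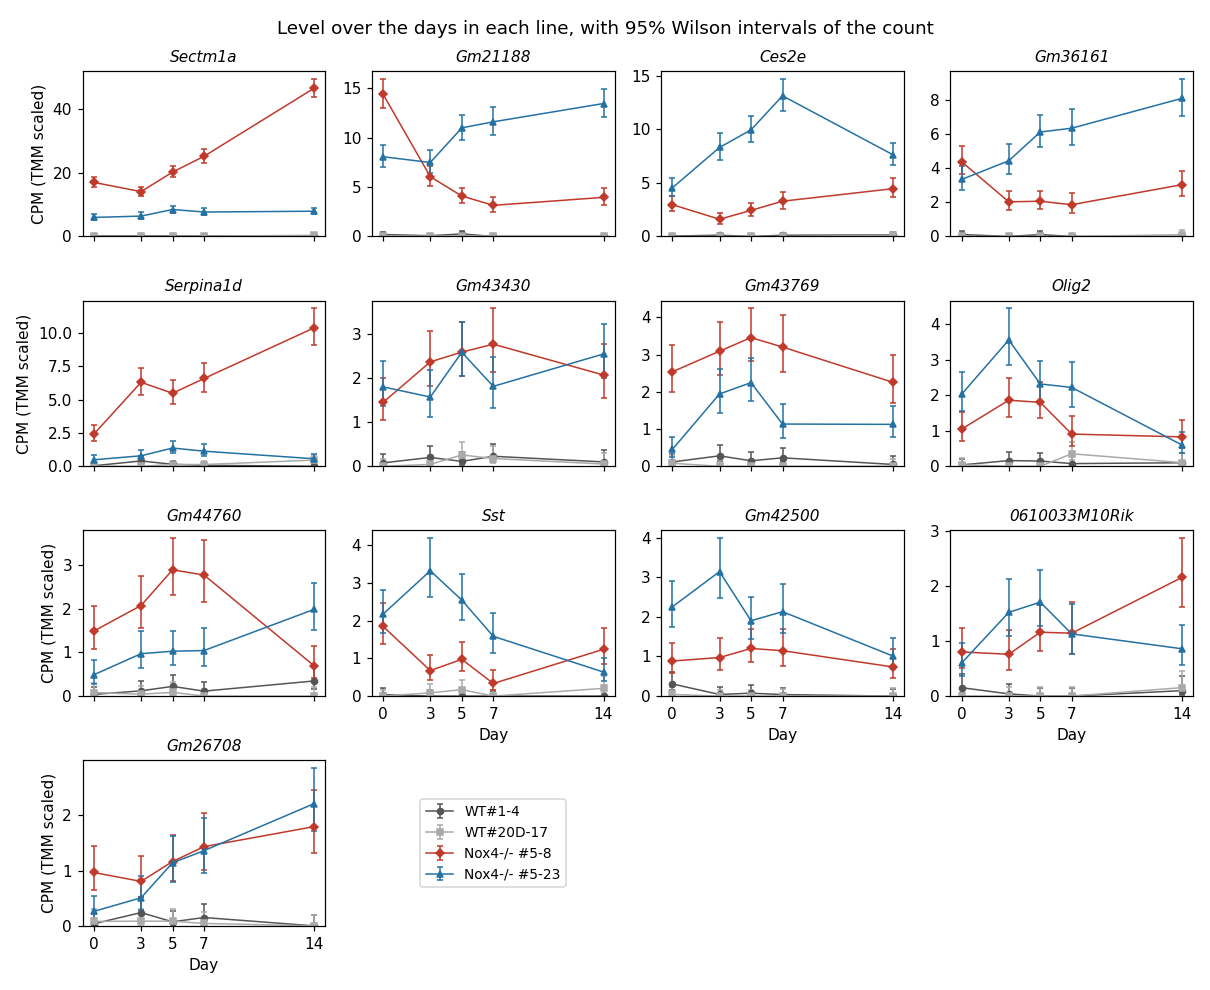
Level of each gene in TMM-scaled CPM (vertical axes, scaled gene by gene) over the 5 days in the 4 lines, with 95% Wilson intervals that cover counting error only. The WT lines lie along the bottom of each panel. For Gm21188 the Nox4-/- lines cross, from 14.4 CPM in #5-8 and 8.07 CPM in #5-23 on day 0 to 3.96 and 13.5 CPM on day 14.

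Whether the trend over days differed between the Nox4-/- lines was tested after the counts had been seen, as an interaction of line and linear day in edgeR. No gene of 15043 passed an FDR of 0.01 (lowest 0.0519), while 2890 (19.21%) were under an unadjusted p of 0.05, 3 of the 13 genes among them. For Gm21188 the trend over 14 days was 2.59 log2 units more positive in #5-23 (SE 0.772, FDR of 0.163 from edgeR). For Gm44760 it was 2.93 more positive (SE 1.19, FDR of 0.226) and for Sectm1a 1.21 less (trend difference of -1.21, SE 0.422, FDR of 0.184). Without the day 14 libraries, the difference over the remaining 7 days was 0.024 for Gm44760 (FDR of 0.993 from edgeR) and -0.18 for Sectm1a (FDR of 0.899), so both values rest on day 14. For Gm21188 it was 2.83 without day 14 and 1.18 over the later days without day 0 (FDR of 0.112 and 0.193 from edgeR).

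The genes around the 13 were examined next, within 60000 bases on each side, a window chosen after the counts were seen. Of 61 annotated neighbours outside the set, 25 were measured (a mean of 5 counts reached in 1 line). In 12 of these (48.0%) both Nox4-/- line means were above both WT line means, where 21.7% of all measured genes had this order. The order takes no account of size, in the neighbours or in all measured genes. Near ties count, such as Hnrnpa2b1, with means of 1077 and 1092 CPM in the WT lines and 1110 and 1127 CPM in the Nox4-/- lines. In 1, Nfkb1, the order was the reverse, where 24.4% of measured genes had it. In 5 of the 25 every Nox4-/- library was above every WT library (1.01% of measured genes). Neighbours in a cluster are not independent, and several share sequence with the genes of the set. These counts were not tested.

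The carboxylesterase neighbours followed Ces2e only in part. Ces2g, 27046 bases from Ces2e on the same strand, had means of 14.6 and 25.4 counts in WT#1-4 and WT#20D-17 and of 434.6 and 514.6 in #5-8 and #5-23. Its Nox4-/- libraries (284 to 648 counts) were all above its WT libraries (0 to 122). Ces2f, which lies between them, had means of 2.8 and 24.2 in the WT lines and 23.4 and 68.2 in the Nox4-/- lines, and the genotypes overlapped. Olig1, the related factor 41095 bases from Olig2, had 104 to 288 counts in Nox4-/- libraries, 9 to 51 in WT#1-4 and 0 to 3 in WT#20D-17. Both Olig genes thus had higher counts in each Nox4-/- library than in any WT library, and Olig1 missed the rule by its WT#1-4 mean of 32.8.

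Serpina1b, a copy whose annotated span holds Serpina1d on the same strand, had means of 1.3 and 11.6 counts in WT#1-4 and WT#20D-17 and of 114.3 and 41.5 in #5-8 and #5-23. It shares 75-base stretches with Serpina1d, so its higher mean in #5-8 is not a separate observation, and its libraries overlapped between genotypes. Near Gm21188 and Gm36161, the pseudogene Gm21370 was at 0 in all WT libraries and had 1 to 13 counts in the Nox4-/- libraries, and Gm36079 had at most 1 count in WT and 2 to 26 in Nox4-/- libraries. Both share 75-base stretches with Gm21188, so the 4 loci are 1 region of shared reads and not 4 separate results. Tmem132d, 15827 bases from Gm42500 on the opposite strand, was far above the limit of the rule, with means of 1272 and 11.4 counts in the WT lines and 2143 and 4606 in #5-8 and #5-23.

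Not every neighbour followed. Sectm1b, the close relative of Sectm1a, had means of at most 1.2 counts in any line, and Cd7, the receptor gene 27989 bases away on the same strand, had means of 48.2, 5.4, 18.8 and 4.0 counts in WT#1-4, WT#20D-17, #5-8 and #5-23. Nfkb1, the host of Gm43430, had means of 1175 and 1133 counts in the WT lines and 767 and 742 in the Nox4-/- lines, so the locus inside it and the gene itself lay in opposite orders. Chrna9, a neighbour of Gm43769, had means of 15.8 and 13 in the WT lines and 104 and 32.0 in #5-8 and #5-23, and like Gm43769 it was higher in #5-8.

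**Figure D4:**
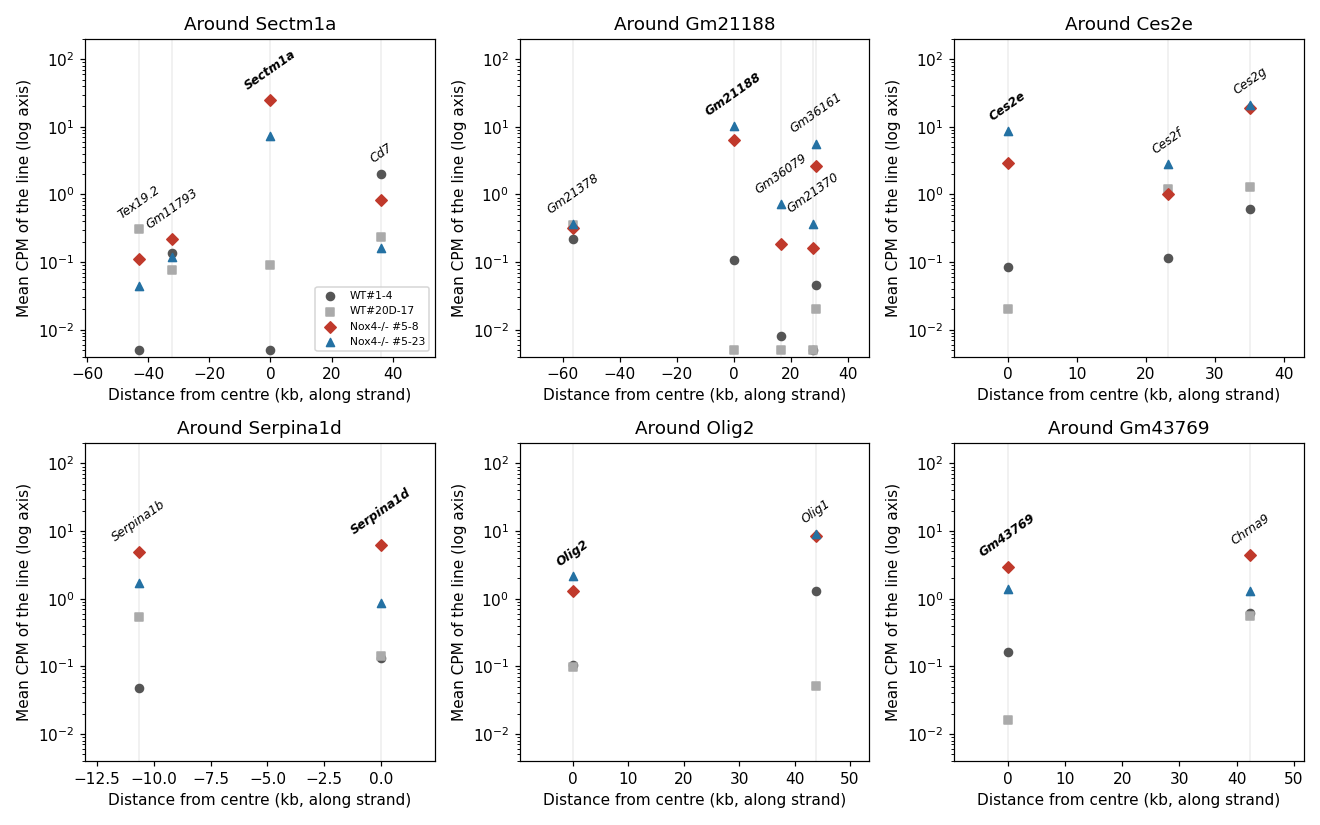
Mean TMM-scaled CPM of each line (logarithmic axis, means of 0 drawn at 0.005) for 6 of the 13 genes (bold) and their measured neighbours, against distance from the centre of the gene in kilobases along its strand. Ces2g and Olig1 lie higher in both Nox4-/- lines than in both WT lines, as Ces2e and Olig2 do, while Cd7 does not follow Sectm1a.

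Lists of related genes and of cell type markers, chosen with earlier results of these data known, were set beside the 13 genes. Their genes are counted as above or below where both Nox4-/- line means were above or below both WT line means. The shares over all measured genes are 21.7% above and 24.4% below. Unlike those shares, the list counts also take in genes under the limit for a measured gene, such as Hoxc12, Hotair and Asz1. The list counts and the shares are thus not on the same base. Of all genes tested, 1.25% passed the day course as higher, and 5.24% were higher and 3.5% lower in #5-23. The HoxC cluster, the block of body-axis factors to which Hoxc11 belongs, came closest to the pattern without giving a member: 9 of 10 genes were above, and the summed level was 1.10 to 3.25 CPM in WT#1-4, 1.54 to 23.5 CPM in WT#20D-17, 69.7 to 113 CPM in #5-8 and 103 to 127 CPM in #5-23. Of 8 HoxC genes tested, 0 passed the day course and 1, Hoxc8, was higher in #5-23. Of the 30 genes of the HoxA, HoxB and HoxD clusters, 5 (against 21.7% of measured genes) were above and 10 (against 24.4%) below, and 9 of 14 tested (against 5.24%) were higher in #5-23. In the list around Sectm1a (8 genes) 2 were above and 2 below, 1 of 5 passed the day course as higher (Slc16a3), and 2 of 4, Sectm1a and Tex19.1, were lower in #5-23. Of 20 interferon response genes 4 were above and 4 below, near the shares of all measured genes, 1 of 16 passed the day course as higher (Irf1) and 1 of 13 was higher in #5-23 (Tap1). Of 16 germ line genes known to be silenced by methylation, 1 was above and 6 below. Among those below, Asz1, Tdrd1 and Mov10l1 had means of at most 0.6 counts in WT#1-4. The summed level of this list was 2.69 to 5.25 CPM in WT#1-4 and 12.8 to 100 CPM in WT#20D-17. It was 2.55 to 3.87 CPM in #5-8 and 1.31 to 5.40 CPM in #5-23. None of these lists other than that around Sectm1a held one of the 13 genes.

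Markers of other cell types differed between the lines as well, and their part in the 13 genes was not tested. Of 8 pluripotency markers 1 was above (Sox2) and 3 below (Esrrb, Dppa5a and Utf1). Their sum was 1285 to 5868 CPM in WT#1-4, 95.2 to 3727 in WT#20D-17, 1961 to 3264 in #5-8 and 3608 to 4642 in #5-23, but it was mostly Pou5f1 (Oct4), which like Sox2 is also a reprogramming factor carried by the vectors. Pou5f1 had line means of 3328, 344, 2757 and 3791 CPM in that order of lines. Nanog had 0.523, 125, 0.648 and 0.365 CPM and Dppa5a 0.99, 254, 0.276 and 0.652 CPM, and Zfp42 was at 0 in every library but those of WT#20D-17, where its mean was 18.7 CPM. Tdgf1 (4.64, 199, 18.7 and 3.02 CPM) and Utf1 (6.89, 89.7, 0 and 0.0259 CPM) were likewise highest in WT#20D-17. Of 12 fibroblast markers 0 were above and 9 below, with sums of 102 to 191, 24.7 to 2947, 36.0 to 347 and 30.9 to 72.1 CPM in the same order of lines (24.4% of measured genes were below). Neural markers (6 genes, 1 above and 1 below) summed to 323 to 542, 39.0 to 108, 152 to 186 and 112 to 185 CPM. These genes went different ways: Map2 had line means of 239, 4.38, 31.0 and 8.38 CPM. Pax6, the 1 gene above, had 14.9, 1.15, 26.6 and 21.2 CPM. Sox1 (107, 3.42, 64.0 and 72.8 CPM) was highest in WT#1-4, and Nes (15.3, 49.7, 24.5 and 30.6 CPM) in WT#20D-17. Among 6 endoderm markers 0 were above and 4 below, and of 6 markers each of blood, trophoblast and cardiac muscle 0 were above and 4, 3 and 4 were below. Sums in the same order of lines were 4.87 to 57.0, 17.6 to 103, 2.33 to 22.8 and 2.48 to 23.7 CPM for blood. For trophoblast they were 5.84 to 107, 46.0 to 270, 12.6 to 39.1 and 7.58 to 21.6 CPM. For cardiac muscle they were 109 to 234, 10.3 to 276, 33.3 to 45.3 and 26.5 to 70.9 CPM. Some of these orders rest on WT#1-4 values near the floor, such as Foxa2 (0.109, 61.9, 0.0169 and 0 CPM). For the liver-expressed Serpina1d and Ces2e the endoderm sum gives the nearest cell type comparison: 1.53 to 3.30 CPM in #5-8 and 1.85 to 3.12 CPM in #5-23, with mean Afp levels of 0.0171 and 0.0226 CPM.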

How the data were processed

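RNA was measured in 20 libraries, 1 for each of 4 lines on each of 5 days, grouped by the sample titles. The authors prepared stranded mRNA libraries, trimmed the paired reads, mapped them to mm10 (GRCm38) with STAR 2.6.0c and deposited the expected counts per gene that RSEM 1.3.1 estimated, without normalization. Reads shared by several genes were split by RSEM, which left 10038 genes with decimals. Whether it was run with the strand is not given in the sources used here, so opposite overlaps (Gm21188 with Gm31544, Gm36161 with Gm21370) are uncertain. The members and all lists were chosen with earlier results of these data known.

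Counts were rounded for tests. In R 4.3.3, edgeR 4.0.16 (with limma 3.58.1) tested day over the 10 Nox4-/- libraries after upper quartile normalization, and line with day as covariate after TMM, both with edgeR's filter on low counts and an FDR of 0.01, and DESeq2 1.42.0 was an alternative. The fits were first run on simulated counts. For the day course these held no difference between lines, so they cannot show what leaving out the replicate block costs. Same-numbered Nox4-/- libraries are the same cell line, which is the source of the replicate block. The rule for named genes was every member with its values, the nearest genes at each edge of the rule, and neighbours. Alternatives covered thresholds, normalization, filter, test, block, and each day left out. CPM was TMM-scaled over all libraries, Wilson intervals are 95% and cover counting error only, and 3 counts were the floor. The SE of a difference fitted in edgeR was computed from its F statistic. Its approximate 95% interval uses a normal distribution, which makes it narrower than edgeR's test implies. The GENCODE M21 annotation of GRCm38 held 55480 of the 55573 gene identifiers, and 75-base stretches of its transcripts were compared between genes.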

Additional observations from a re-analysis of the deposited data

Results flagged for a closer look

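Gm36161, the lincRNA on chromosome 13, was flagged because its libraries after day 0 lay on opposite sides of day 0 in the 2 Nox4-/- lines. On the scale of log2(CPM + 1), day 14 was -0.42 against day 0 in Nox4-/- #5-8, where all 4 later libraries were lower than day 0. It was 1.07 in Nox4-/- #5-23, where all 4 were higher. This ordering itself was not tested. The related test of a line difference in the linear trend gave an FDR of 0.279 in edgeR's quasi-likelihood test (trend difference over 14 days of 1.58 log2 units, SE 0.746). Without the day 0 libraries the difference over the later days was 0.17 (FDR of 0.846 from edgeR), so it rests on day 0. Gm21188, with which Gm36161 shares reads, had the same order in #5-8.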

How the results depend on the processing

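The rule took 13 genes, and the same 13 with TMM-scaled counts. It took 5 with a WT limit of 2, 5 with a Nox4-/- limit of 50, 2 with limits on every library, 41 with WT#1-4 as the only WT line, 329 with WT#20D-17, 28 with #5-8 as the only Nox4-/- line and 34 with #5-23. In the day course 0 of the 13 genes passed, but 1 without a filter on low counts (Sectm1a) and 2 with a linear trend in day and the replicate block. Over all genes 283 passed, 3172 with DESeq2, 3461 without the filter, 2280 with the replicate block, 4994 with the trend and block, and 1772 at an FDR of 0.05. Without each day in turn, 0 to 203 passed (0 without day 0, 8 without day 14). In the line difference 3 of the 13 passed, and 5 with DESeq2, without the filter and at an FDR of 0.05, and 2 to 4 without each day in turn. Over all genes 1315 passed, 316 without the day covariate, 2420 with DESeq2, 2218 without the filter, 2706 at an FDR of 0.05, and 476 to 2255 without each day in turn. In the day course without a linear trend, the replicate block changed no call of the 13 genes. The linear trend was fitted only with the block, so their parts in its calls cannot be told apart. The direction of every called difference of the 13 genes was kept in these settings, and the cause of the changes in the counts was not tested. With a window of 100000 bases, 17 of 44 measured neighbours (38.6%) had both Nox4-/- means above both WT means. Depth limits the lowest genes. In their lowest Nox4-/- library, Sst and Gm26708 (7 counts each), Gm44760, Gm43769 and Serpina1d have Wilson intervals that reach values of WT libraries.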
